A study of Mus musculus with 6 samples.

Results

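The clustered histone genes of the mouse were followed in CD8+ T cells that had been cultured with or without myeloid cells from tumour-bearing mice. The set holds every row of the deposited expression table whose symbol begins with Hist1h, Hist2h, Hist3h or Hist4h, 67 of 25638 rows. It comprises 6 linker histone H1 genes, 18 H2A, 18 H2B, 12 H3 and 13 H4 genes. Of these, 57 reached 1 FPKM (fragments per kilobase of gene and per M counted) in at least 1 library and were compared, and 10 did not and were only counted. The rule used symbols and a minimum level, and no difference between groups.

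The T cells were OT-I cells, whose transgenic receptor recognises a peptide of ovalbumin, and the labels give their genotype as WT. All groups received the peptide OVA257-264 for 48 hours, so no group was left unstimulated. The first group was cultured with vehicle, the second with cells that the submitters call TANs, sorted as CD11b+Ly6G+Ly6Clow, and the third with cells that they call TAMos, sorted as CD11b+Ly6G-Ly6Chigh. Both sorted populations came from the spleen, not the tumour, of mice that carried LLC tumours (Lewis lung carcinoma). T cells were purified after the culture, and each group had 2 libraries. The labels do not say whether these came from separate cultures or animals, so p-values measure only the spread between these libraries, which may be technical. The labels give no age of the mice.

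Histones are the proteins around which DNA is wound. H2A, H2B, H3 and H4 form the core of the nucleosome, and H1 binds the linker DNA between nucleosomes. Most genes of the clusters are replication-dependent: they are transcribed when DNA is copied, at a nuclear structure organised by the protein Npat, and they supply new nucleosomes. Their mRNAs end in a conserved stem-loop in place of a poly(A) tail, and the stem-loop binding protein Slbp acts in their processing, export, translation and decay. Some members can also give polyadenylated transcripts that extend past the stem-loop. T cells that respond to antigen divide rapidly and need these histones in each cycle.

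The stem-loop was read from GENCODE transcripts (mouse release 21, GRCm38, which is the assembly of mm10). The motif searched, on the transcript's own strand, was GG, 2 bases of any kind, CTTTT, any base, AG, 2 bases of any kind and CC. It was found in the annotated 3′ UTR of 43 of the 67 members, against 0.161% of 55341 gene names in the whole annotation. Where it was not found, these letters were missing from the annotated 3′ UTR, and for some members that UTR is itself absent from the annotation. Hist1h1b and Hist1h3h, for example, have 0 annotated bases, so the motif could not be found there. Stem-loops are given for members that the results turn on, with the motif in capitals and 5 bases on either side. Hist1h1c and Hist3h2a rose with TAMo, and the other 4 fell.
Hist1h1c: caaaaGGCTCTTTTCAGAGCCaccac
Hist3h2a: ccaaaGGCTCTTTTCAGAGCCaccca
Hist1h3c: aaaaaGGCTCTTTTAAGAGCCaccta
Hist1h2ag: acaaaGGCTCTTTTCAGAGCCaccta
Hist1h4i: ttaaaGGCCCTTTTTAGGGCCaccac
Hist1h4b: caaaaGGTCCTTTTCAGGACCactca
The 16 bases of the motif were identical in Hist1h1c and Hist3h2a, which rose, and in Hist1h2ag, which fell. The part of the stem-loop in the change was not tested. Annotated transcripts ran on for 840 bases past the stem-loop in Hist1h1c and for 1643 bases in Hist3h2a, against 74 in Hist1h3c, 23 in Hist1h2ag and 330 in Hist1h4i. Other members were not split in this way. Hist1h1d and Hist1h2be, which fell with TAMo, ran on for 4884 and 1861 bases, and Hist2h2aa2, which rose, for 35. No stem-loop motif was found in Hist1h2bc, whose longest annotated coding transcript has 2 exons.

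Promoters, 250 bases upstream of the start, were available from RefSeq (GRCm38.p6) for 61 of the 67 members. Each motif was counted on both strands, and matches of different motifs may overlap. Windows of neighbours on opposite strands can cover the same bases, so the same match can count for both. Hist1h2ag (chr13:22042950-22043199) and Hist1h2bj (chr13:22042948-22043197) are an example. The shares of members are therefore not counts of separate sites. The CCAAT box (CCAAT) was present in 82.0% of the matched members and in 33.8% of 32851 promoters of the same length. It occurred in all 6 H1, 17 H2A and 16 H2B promoters and in 8 of 10 H3 promoters, but in 3 of 12 H4 promoters. The octamer ATTTGCAT, which the factor Pou2f1 is known to bind, was found in 7 H2A and 6 H2B promoters and in no matched H1, H3 or H4 promoter. Its share was 21.3% of the members and 1.60% of all promoters. The letters TATAAA occurred in 47.5% of the members and 12.4% of all promoters. The letters AAACACA, an element known from H1 promoters, were present in 5 of 6 H1 promoters and in 6.25% of all promoters. A match describes letters only and shows no bound factor.

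Promoters are given for a neighbouring pair and for a second H1 gene, 5′ to 3′ on the strand of the gene, with the matches to these motifs in capitals. Hist1h1c (chr13:23738557-23738806, plus strand) had the highest fold rise of the set with TAMo, and Hist1h3c (chr13:23745603-23745771, minus strand), the next member along the chromosome, the largest fall on the log2 scale. Hist1h1b (chr13:21780626-21780875, minus strand) fell. GENCODE places the start of Hist1h3c upstream of the RefSeq start, and the 81 bases of the window inside the GENCODE gene are left out.
Hist1h1c: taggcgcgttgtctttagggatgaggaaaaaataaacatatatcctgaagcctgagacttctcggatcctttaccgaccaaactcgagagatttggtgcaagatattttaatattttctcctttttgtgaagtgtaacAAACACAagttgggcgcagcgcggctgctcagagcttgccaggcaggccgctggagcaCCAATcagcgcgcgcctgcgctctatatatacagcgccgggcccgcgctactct
Hist1h3c: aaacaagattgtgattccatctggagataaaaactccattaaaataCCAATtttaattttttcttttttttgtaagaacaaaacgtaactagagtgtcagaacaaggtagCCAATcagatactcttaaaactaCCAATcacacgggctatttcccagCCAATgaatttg
Hist1h1b: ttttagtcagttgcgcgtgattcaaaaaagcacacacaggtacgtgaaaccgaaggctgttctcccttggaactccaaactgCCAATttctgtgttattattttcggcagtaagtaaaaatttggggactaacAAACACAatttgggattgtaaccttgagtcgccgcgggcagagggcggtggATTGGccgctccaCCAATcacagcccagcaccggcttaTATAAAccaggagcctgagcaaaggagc
The promoters of Hist1h1c and Hist1h1b both held the AAACACA element and a CCAAT box. Hist1h1c rose with TAMo and Hist1h1b fell, and the part of these motifs in the change was not tested. The 169 bases given for Hist1h3c held 4 CCAAT boxes, against 1 for Hist1h1c and 3 for Hist1h1b in 250 bases.

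The labelled cell type was borne out by its markers. The 7 CD8 T cell markers (Cd3d, Cd3e, Cd3g, Cd8a, Cd8b1, Cd2 and Lck) summed to between 1263 and 1315 FPKM in every library. Of 13 neutrophil markers none reached 1 FPKM, and S100a8 and S100a9 were listed at 0 in all libraries. The 13 monocyte and macrophage markers summed to 25.9 to 27.4 FPKM with vehicle, 21.4 to 23.0 with TAN and 19.4 to 25.0 with TAMo. C1qa and C1qb were listed at 0 throughout. Of the 4 of these markers tested, Cd14, Cd68 and Ms4a6c rose with TAMo, Cd14 from 0.0707 to 3.01 FPKM, and Apoe fell from 21.2 to 7.55. The part of remaining myeloid cells in the histone levels was not tested. Depth, read from the steps between low values, was 41.6 to 45.3 M counted reads per library. The search covered 30 to 60 M, so a depth below that range could not be returned. Read numbers were even for 98.3% of low values in TAMo replicate 1, against 60.1% to 63.5% in the others, so that the depth of this library is uncertain. The read numbers given for it are uncertain in the same way and may be too high.

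With vehicle, the 57 compared members lay between 0.188 and 67.1 FPKM, with a median of 5.17. The highest member in the vehicle and TAN libraries was Hist1h4i, an H4 gene, which made up 53.4% and 53.6% of the summed H4 level of the vehicle libraries. Members with at least 1 FPKM numbered 52 and 49 with vehicle, 48 and 51 with TAN, and 19 and 25 with TAMo. The 10 members under 1 FPKM included the testis genes Hist1h1t and Hist1h2aa, both listed at 0 in all libraries, and Hist1h2ba, also a testis gene, whose highest value was 0.058. The others were Hist1h2ac, Hist1h2bq, Hist1h2br, Hist2h2ab, Hist2h3c2, Hist2h4 and Hist4h4, none of which passed 0.951 FPKM.

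Most compared members reached the minimum level in only part of the groups. Of the 57 compared members, 20 reached 1 FPKM in all 3 groups and 31 in the vehicle and TAN groups only. A further 4 reached it in the TAMo group only, 1 in the vehicle group only, and 1 in the TAN and TAMo groups. A member that reached the minimum only in a group where it is high was more likely to differ between groups, so counts over the compared members describe them and support nothing further.

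**Figure D1:**
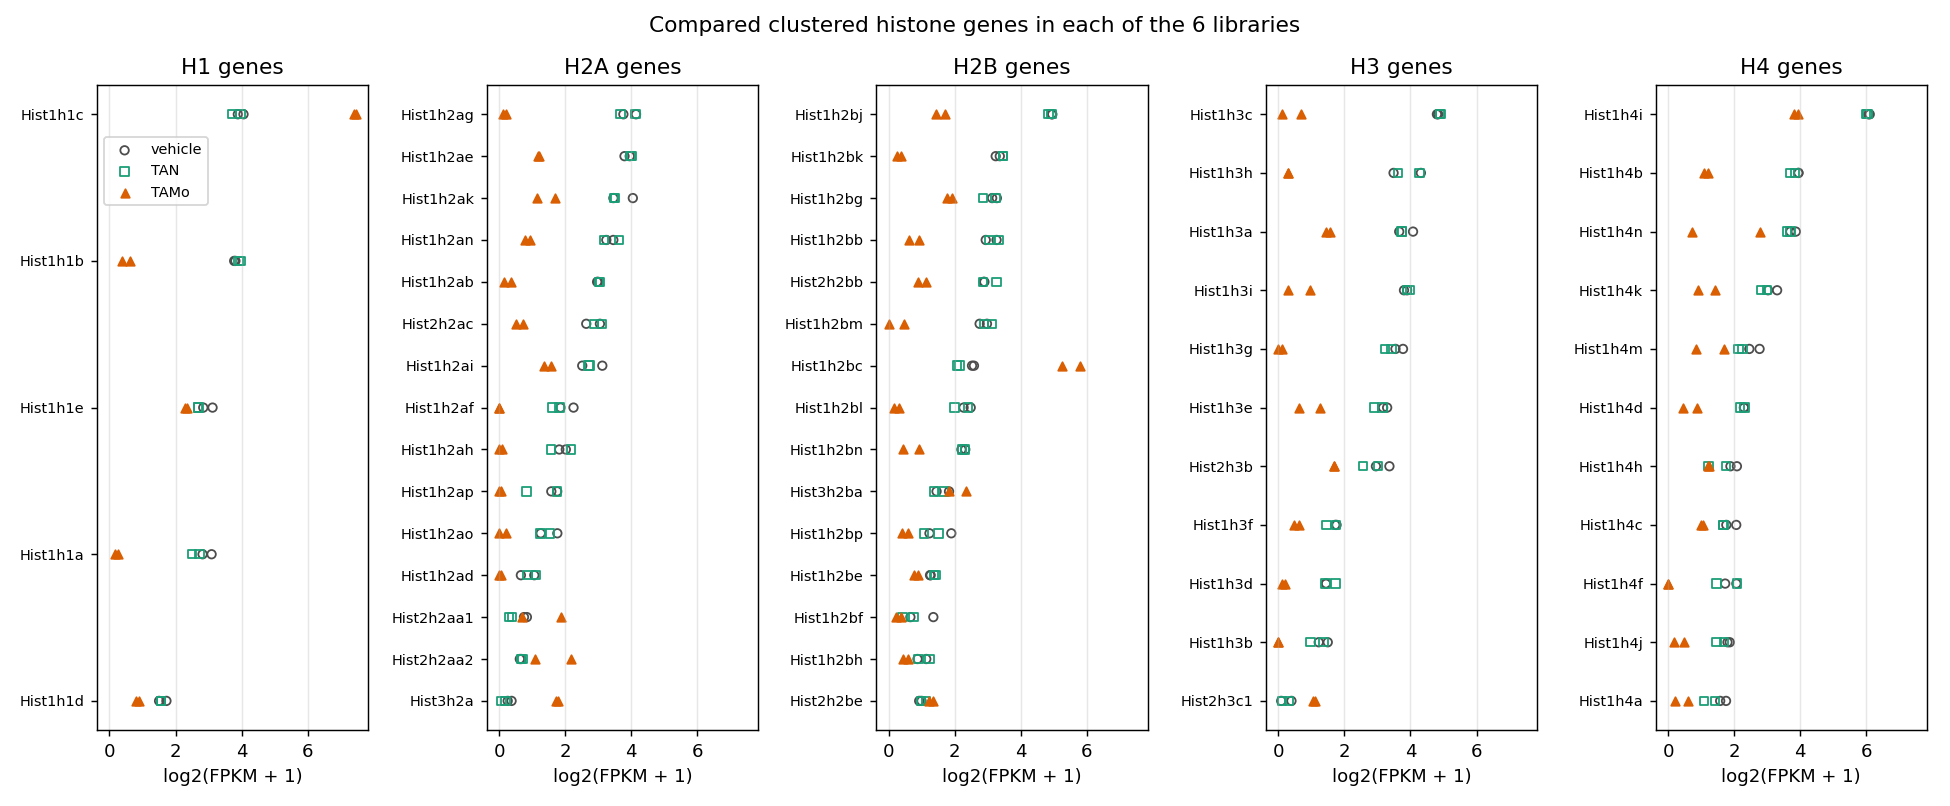
Level of each compared histone gene in each library, as log2(FPKM + 1), in 1 panel per histone class, with genes ordered by their vehicle mean. Open circles are vehicle, open squares TAN and filled triangles TAMo, 2 of each per gene. Vehicle and TAN symbols lie together in nearly every row, while TAMo symbols lie to the left in most rows and far to the right for Hist1h1c and Hist1h2bc.

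Culture with TANs left the histone genes close to vehicle. The summed level of all members was 468 and 421 FPKM with vehicle and 430 and 407 FPKM with TAN, so the groups overlapped. No member passed the test out of 57, while 19.9% of the 10936 genes tested did, 9.22% as higher and 10.7% as lower (limma on log2(FPKM + 1), Benjamini-Hochberg adjusted p under 0.05). Changes ranged from -0.50 to 0.17 on the log2 scale, with a median of -0.12 against -0.0046 over all genes tested. This scale flattens low members. By the ratio of mean FPKM the range ran from Hist2h2aa1, 2.77-fold lower with TAN, to Hist1h2ad, 1.19-fold higher. Both had means under 1 FPKM with vehicle and with TAN. Without adjustment, 6 of the 57 members had a limma p under 0.05, against 3757 of the 10936 genes tested. The 6 were Hist1h1a, Hist1h1e, Hist1h2bc, Hist1h3g, Hist1h4a and Hist1h4h. All 6 were lower with TAN, and their limma adjusted p lay between 0.0727 and 0.134. Other settings of the fit called at most 3 members.

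Within the classes, all 11 compared H4 genes had a log2 change below 0 with TAN, from -0.50 to -0.05, without passing the test. Over all genes tested, 5617 of 10936 changes were below 0. The H4 genes share libraries and in part sequence, so their count is a description. Hist1h4h was 2.71 and 3.25 FPKM with vehicle and 2.37 and 1.33 with TAN. Hist1h4i was 68.0 and 66.2 FPKM with vehicle and 64.8 and 62.5 with TAN. In the other classes the counts below 0 were 4 of 5 for H1, 9 of 15 for H2A, 7 of 15 for H2B and 7 of 11 for H3. The replicates of a group could differ by more than the groups did. The H3 gene Hist1h3h, for example, was 18.9 and 10.2 FPKM with vehicle and 18.3 and 11.4 with TAN.

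Culture with TAMos was accompanied by a broad fall of the core histone genes and by a rise of a few members. Of the 57 compared members, 49 fell and 6 rose, and Hist2h2aa1 and Hist3h2ba passed the test in neither direction. Over all genes tested 85.8% passed in this comparison, 40.3% as lower and 45.5% as higher. In the set 55 of 57 members passed, and 86.0% were lower. Their median change was -1.64 on the log2 scale, against 0.06 for all genes tested. Among the 23 members with a mean of at least 5 FPKM over all libraries, 21 fell and 2 rose. With no minimum at all, 48 of 65 members fell and 5 rose.

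For the core histones H2A, H2B, H3 and H4 the summed level was 422 and 380 FPKM with vehicle, 388 and 368 with TAN, and 91.4 and 124 with TAMo. The linker histone genes went the other way, from 45.9 and 40.9 FPKM with vehicle to 181 and 175 with TAMo, through Hist1h1c alone. In RNA from a whole culture, fewer dividing cells and less histone mRNA per cell cannot be told apart. FPKM also depends on the total read count of each library, so absolute amounts were not measured. Transcripts of the mitochondrial genome, which share that total, made up 8.07% to 8.34% of FPKM in the vehicle and TAN libraries and 1.20% and 1.32% in the TAMo libraries. Their part in the result was not tested, but rescaling all libraries without them kept the counts of members that rose and fell within 1.5 times.

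**Figure D2:**
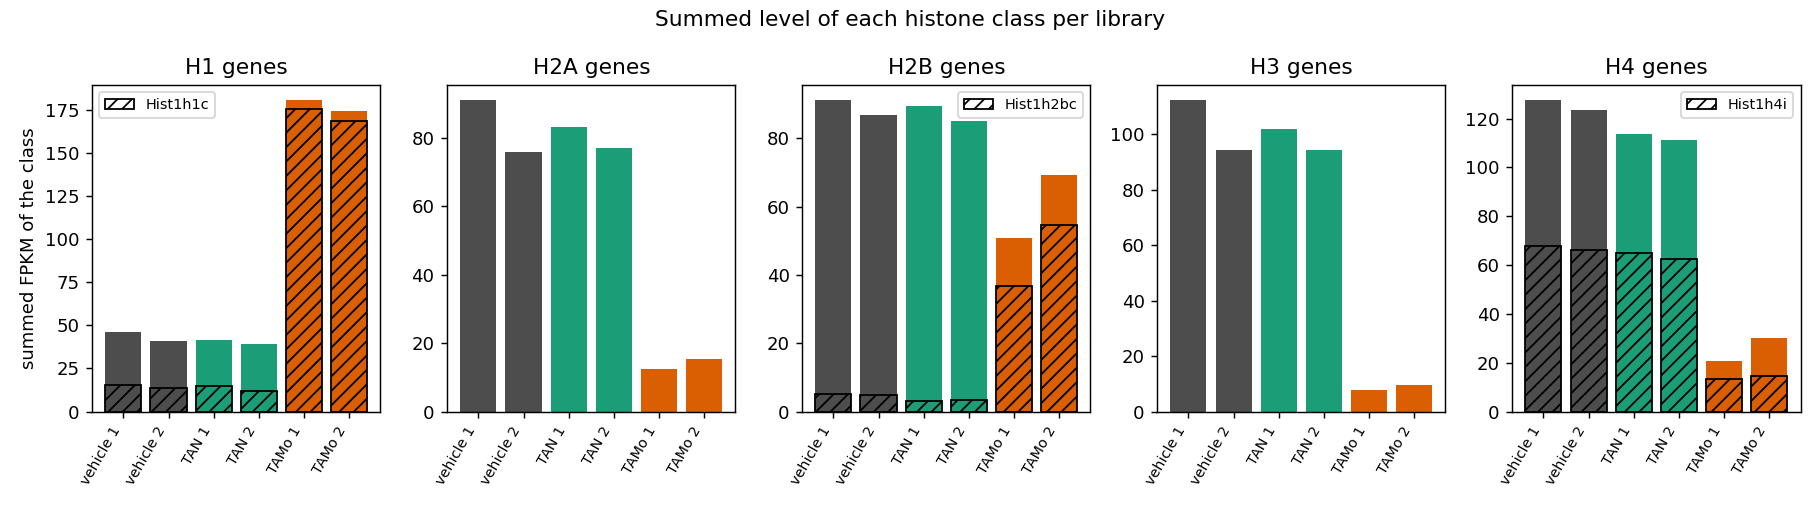
Summed FPKM of each histone class in each library, vehicle in grey, TAN in green and TAMo in orange, with hatching for the part from 1 named gene. In the H1 panel the TAMo bars reach 181 and 175 FPKM and are almost wholly Hist1h1c, and in the H2A, H3 and H4 panels the TAMo bars are the lowest.

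The mean of a member that fell was lower with TAMo by a median of 9.16-fold, as the ratio of mean FPKM. The ratio exceeded 2-fold in 47 of the 49, and 25 were at least 10-fold lower or listed at 0. Hist1h2af, Hist1h3b and Hist1h4f were listed at 0 in both TAMo libraries, and no ratio is given for them. The lowest TAMo values rest on very few reads. In the TAMo libraries 23 and 19 of the 57 compared members had 10 reads or fewer, against 0 to 3 members in the other libraries.

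**Figure D3:**
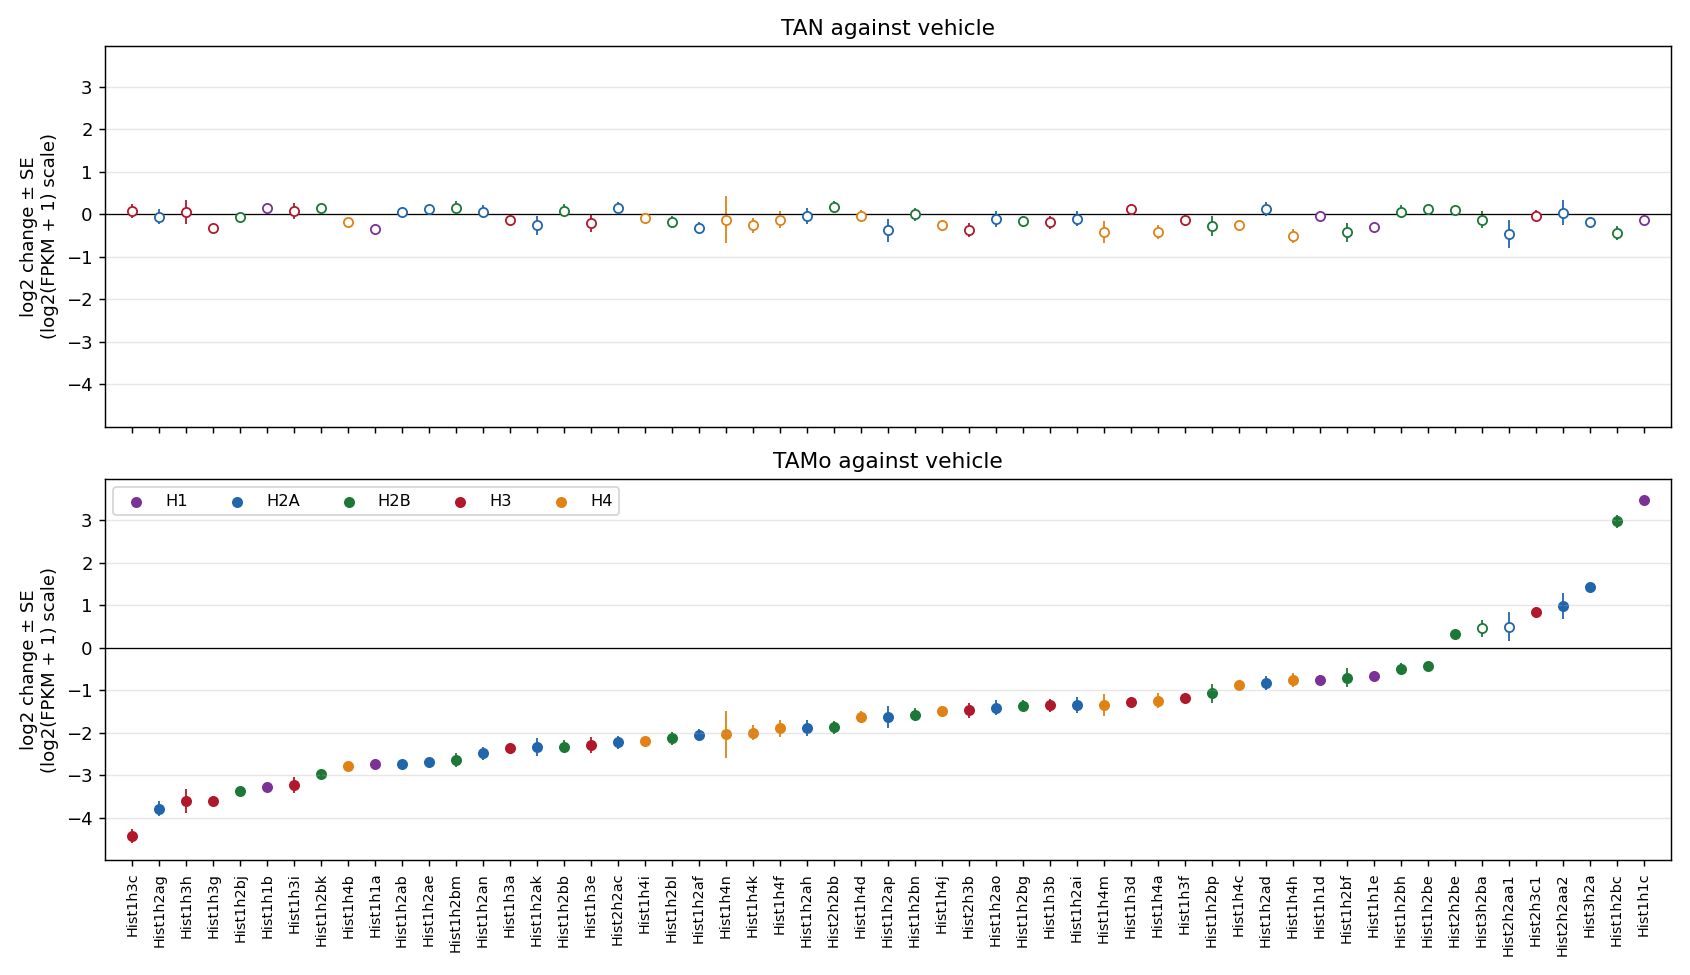
Change of each compared member on the log2(FPKM + 1) scale with its standard error, TAN against vehicle above and TAMo against vehicle below, in the same gene order and coloured by class. Filled symbols passed the test and open symbols did not. All symbols of the upper panel are open and lie between -0.50 and 0.17, and the lower panel runs from -4.43 for Hist1h3c to 3.46 for Hist1h1c.

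Among the linker histones, Hist1h1c rose and the other 4 compared genes fell. Hist1h1c (chr13:23738808-23740367, plus strand, a single exon) encodes histone H1.2, one of the somatic H1 variants. It was 15.7 and 13.8 FPKM with vehicle, 14.7 and 12.1 with TAN, and 176 and 169 with TAMo. Both TAMo libraries lay far above the other 4. The mean rose from 14.7 ± 1.32 (SD, n = 2) to 172 ± 4.83 (SD, n = 2) with TAMo, a ratio of 11.7. On the log2 scale the rise was 3.46 ± 0.09 (SE, limma adjusted p = 2.54e-08). In the TAMo libraries Hist1h1c was the highest of all members and made up 64.5% and 56.5% of their summed level, against 2.97% to 3.42% elsewhere. The call rested on 11976 reads in TAMo replicate 1 and 10959 in replicate 2. Only 5.07% of its 100-base windows occur in another gene, and no annotated gene overlaps it.

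Hist1h1b (chr13:21779883-21780625, minus strand), which encodes H1.5, was 12.7 and 13.1 FPKM with vehicle, 14.7 and 13.97 with TAN, and 0.307 and 0.549 with TAMo. With vehicle it was thus at about the level of Hist1h1c, and with TAMo the pair stood at opposite ends of the class. The fall with TAMo was -3.29 ± 0.09 (SE) on the log2 scale, with a limma adjusted p of 3.05e-08. Hist1h1a, which encodes H1.1, fell from 7.53 and 6.06 FPKM to 0.123 and 0.194. The falls of Hist1h1e (H1.4) and Hist1h1d (H1.3) were smaller. Hist1h1e went from 6.93 ± 1.09 to 4.01 ± 0.186 FPKM and Hist1h1d from 2.07 ± 0.334 to 0.814 ± 0.0825 FPKM (SD, n = 2). Hist1h1a and Hist1h1b share no 100-base window with another gene.

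Of 15 compared H2A genes 12 fell with TAMo, 2 rose and 1 did not pass. The summed H2A level was 91.0 and 75.8 FPKM with vehicle and 12.3 and 15.2 with TAMo. Hist1h2ag (chr13:22042460-22042944, minus strand) was 16.7 and 12.6 FPKM with vehicle, 16.5 and 11.7 with TAN, and 0.0941 and 0.148 with TAMo. Its TAMo values correspond to 2 and 3 reads, and its fitted fall of -3.79 ± 0.17 (SE, limma adjusted p = 4.26e-07) therefore depends on the pseudocount of 1. Of its windows 76.2% occur in other genes, and Gm44486 overlaps it on the opposite strand. Hist1h2ae was 14.5 and 12.9 FPKM with vehicle, 15.03 and 14.8 with TAN, and 1.30 and 1.26 with TAMo. The replicates of Hist1h2ae lay close together, and its fall was -2.69 ± 0.07 (SE) on the log2 scale.

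The H2A genes that rose lie outside the large cluster. Hist3h2a (chr11:58954685-58956830, plus strand) was 0.198 and 0.299 FPKM with vehicle, 0.0519 and 0.146 with TAN, and 2.42 and 2.31 with TAMo. It rose by 1.43 ± 0.10 (SE, limma adjusted p = 4.44e-06). Hist3h2a reached 1 FPKM only with TAMo, so it was tested only because of the group where it is high. The p-value therefore gives no support. In the annotation it overlaps Trim17 on the same strand and Gm44313 on the opposite strand, and reads of these genes cannot be separated here. Hist2h2aa2 (chr3:96239749-96240276, minus strand) was 0.592 and 0.544 FPKM with vehicle, 0.591 and 0.634 with TAN, and 1.12 and 3.50 with TAMo. All of its 100-base windows occur in other genes, among them that of its near-identical partner Hist2h2aa1. Its limma adjusted p was 0.017, and the call was lost with no minimum level and without either vehicle library, with an adjusted p of at most 0.0774 over these settings. Hist2h2aa1 was 0.686 and 0.792 FPKM with vehicle and 0.623 and 2.70 with TAMo, so that the groups overlapped.

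Of 15 compared H2B genes 12 fell with TAMo, 2 rose and 1 did not pass. Hist1h2bj (chr13:22043214-22043676, plus strand) was the highest H2B gene with vehicle. It was 30.0 and 29.5 FPKM with vehicle, 29.4 and 27.6 with TAN, and 1.68 and 2.28 with TAMo. The mean was 15.04-fold lower with TAMo, and the fall was -3.38 ± 0.09 (SE, limma adjusted p = 3.18e-08). Hist1h2bk fell from 8.44 and 9.29 to 0.192 and 0.302 FPKM, and 70.8% of its windows occur in other genes.

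Hist1h2bc (chr13:23684199-23692908, plus strand) went against its class. It was 4.98 and 4.74 FPKM with vehicle, 3.18 and 3.44 with TAN, and 36.8 and 54.7 with TAMo. Its rise was 2.97 ± 0.16 (SE, limma adjusted p = 1.11e-06), a ratio of mean FPKM of 9.42. Its share of the summed H2B level was 5.47% in both vehicle libraries and 72.4% and 78.9% in the TAMo libraries. Without Hist1h1c and Hist1h2bc the summed level of all members was 447 and 403 FPKM with vehicle and 59.7 and 75.2 with TAMo. Hist2h2be (chr3:96221119-96223738, plus strand) was 0.988 and 0.894 FPKM with vehicle, 0.961 and 1.19 with TAN, and 1.34 and 1.51 with TAMo. That rise of 0.32 ± 0.10 (SE, limma adjusted p = 0.016) was lost without vehicle replicate 2 or without TAMo replicate 2, with an adjusted p of at most 0.0772.

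Among the H3 genes 10 of 11 fell with TAMo and Hist2h3c1 rose. The summed H3 level was 112 and 94.3 FPKM with vehicle and 7.64 and 9.57 with TAMo. Hist1h3c (chr13:23744973-23745602, minus strand) was 27.6 and 26.9 FPKM with vehicle, 29.1 and 28.7 with TAN, and 0.0724 and 0.609 with TAMo. Its fall of -4.43 ± 0.16 (SE, limma adjusted p = 1.45e-07) was the largest of the set on the log2 scale. The TAMo values correspond to 2 reads in replicate 1, a number that may be too high, and 16 in replicate 2. Hist1h3h (chr13:21717659-21718069, plus strand) fell by 3.61 ± 0.29 (SE), to 0.222 and 0.234 FPKM, and 92.0% of its windows occur in other genes. Hist1h3g was 12.7 and 10.7 FPKM with vehicle, 9.75 and 8.42 with TAN, and 0.0861 and 0 with TAMo.

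Hist2h3c1 (chr3:96246685-96248509, plus strand) was 0.0612 and 0.315 FPKM with vehicle, 0.244 and 0.0735 with TAN, and 1.05 and 1.15 with TAMo. It rose by 0.83 ± 0.14 (SE, limma adjusted p = 0.000712), but it was tested only because of the TAMo libraries, where it is high. All its windows occur in other genes, and Hist2h3c2, which stayed under 1 FPKM, was not compared. The sources used here do not give how reads of such copies were assigned.

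All 11 compared H4 genes fell with TAMo. The summed H4 level was 127 and 123 FPKM with vehicle, 114 and 111 with TAN, and 20.6 and 30.0 with TAMo. Hist1h4i (chr13:22040636-22041362, minus strand) was 68.0 and 66.2 FPKM with vehicle and 13.2 and 14.4 with TAMo. Its mean was 4.87-fold lower, and the fall was -2.20 ± 0.05 (SE, limma adjusted p = 9.59e-09). It remained the highest H4 gene in the TAMo libraries. Hist1h4b (chr13:23757013-23757409, plus strand) fell from 14.5 and 14.4 to 1.15 and 1.33 FPKM, a change of -2.79 ± 0.08 (SE). Of its windows 71.8% occur in other genes. Hist1h4n differed most between the TAMo replicates, with 0.637 and 5.86 FPKM against 12.04 and 13.6 with vehicle. Its limma adjusted p was 0.00991. The call was lost with no minimum level and without vehicle replicate 2, with an adjusted p of at most 0.0579, and 80.7% of its windows occur in other genes.

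Calls were also counted by cluster. Of the 48 compared members in the Hist1 cluster on chromosome 13, which spans positions 21715763 to 23934851, 46 fell with TAMo and 2 rose. Of the 7 compared members in the Hist2 cluster on chromosome 3, 3 fell, 3 rose and 1 did not pass, near the shares over all genes tested (40.3% lower and 45.5% higher). Of the 3 that rose, Hist2h2aa2 and Hist2h3c1 reached 1 FPKM only with TAMo and have all their windows shared with other genes. Members side by side could differ in direction. Hist1h1c and Hist1h3c, with log2 changes of 3.46 and -4.43, lie 4605 bases apart. Hist2h2ac and Hist2h2be, divergent genes 238 bases apart, had log2 changes of -2.22 and 0.32. Hist1h2bc lies 250 bases from the divergent Hist1h2ac, whose values were 0.827 and 0.552 FPKM with vehicle and 0.625 and 0.561 with TAMo.

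Members with a long annotated 3′ UTR were less low with TAMo than those with a short one. Over all genes tested, 40.3% fell with TAMo and 45.5% rose. Among the 16 compared members with at least 300 bases of 3′ UTR, 5 rose and 11 fell, and the median ratio of mean FPKM, TAMo over vehicle, was 0.404. Among the 41 with a shorter 3′ UTR, 1 rose and 38 fell, and the median ratio was 0.0866. Several of these, such as Hist1h1b, Hist1h3h and Hist1h4k, which fell, are annotated with 0 bases of 3′ UTR. Their transcripts end with the coding sequence, so their real 3′ UTR length is not known. The counts, medians and correlation given here use the annotated lengths. Over all 57 members, Spearman's rho between 3′ UTR length and the log2 ratio was 0.53. The members share libraries and in part sequence, so the value is a description. The 6 members that rose had a median 3′ UTR of 1046.5 bases, from 109 to 2192, and the 49 that fell one of 80 bases, from 0 to 4931. Of these 6, Hist2h2aa2, Hist2h3c1 and Hist3h2a reached 1 FPKM only with TAMo. The minimum level kept 16 of 22 members with at least 300 bases and 41 of 45 shorter ones. It may thus shape the contrast between members that rose and fell. The polyadenylation hexamer AATAAA stood in the last 40 bases of the annotated transcript in 4 of the 6 that rose and in 4 of the 49 that fell. The stem-loop motif was present in 4 of the 6 that rose and in 32 of the 49 that fell. Members without an annotated 3′ UTR could not show it. The longest 3′ UTR, of 4931 bases in Hist1h1d, belonged to a gene that fell. The labels name the library kit but not whether poly(A) RNA was selected, and the part of that step in the levels was not tested.

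**Figure D4:**
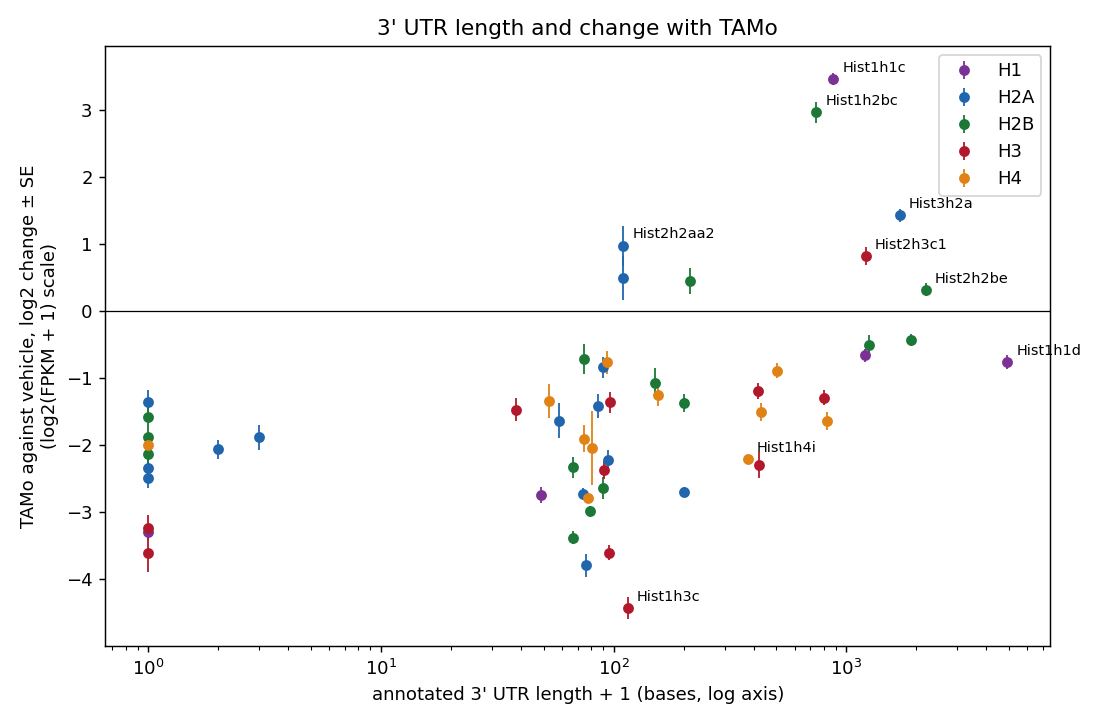
Annotated 3′ UTR length plus 1 base, on a log axis, against the change with TAMo on the log2(FPKM + 1) scale with its standard error, for the 57 compared members coloured by class. Of the 6 members that rose, 5 lie at 300 bases or more, and members that fell are found over the whole range of lengths. Of these 5, Hist2h3c1 and Hist3h2a reached 1 FPKM only with TAMo. Members at the left end of the axis have no annotated 3′ UTR, so their real length is not known.

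Shared sequence limits how far single members can be told apart. A 100-base window shared with another gene was found in 61 of 67 members, and 28 had at least 50% of their windows shared. In addition, 21 members overlap an annotated gene on the opposite strand and 7 one on the same strand. The sources used here do not give the strand setting of the counting, so reads of overlapping genes cannot be separated. Among the 9 compared members with under 10% of windows shared, 6 fell with TAMo, 2 rose and 1 did not pass. Among the 36 compared members without an overlapping gene, 32 fell, 3 rose and 1 did not pass. Beside both counts, 40.3% of all genes tested fell with TAMo and 45.5% rose.

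TAN and TAMo libraries were also compared directly. With TAN, 47 of the 57 compared members were higher than with TAMo and 7 were lower, and Hist1h2bf, Hist1h4h and Hist2h2be did not pass. Over all genes tested 86.1% passed, 40.3% as higher and 45.8% as lower. The largest differences upward with TAN were Hist1h3c (4.51), Hist1h2ag (3.74) and Hist1h3h (3.65), on the log2 scale. The largest downward were Hist1h1c (-3.60), Hist1h2bc (-3.41) and Hist3h2a (-1.62). Hist2h2aa1 and Hist3h2ba, which did not pass against vehicle, were lower with TAN than with TAMo, with limma adjusted p of 0.0277 and 0.026. The Hist2h2aa1 call was lost in 7 of 15 other settings, among them the fit without either vehicle or either TAN library, with an adjusted p of at most 0.104. The Hist3h2ba call was lost with no minimum level, without TAN replicate 2 and without TAMo replicate 1, with an adjusted p of at most 0.144. Of the 7 members lower with TAN, Hist2h2aa1, Hist2h2aa2, Hist2h3c1 and Hist3h2a reached 1 FPKM only with TAMo, so their p-values give no support. The TAMo libraries enter both this comparison and that against vehicle, so the 2 comparisons do not support each other.

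The machinery that makes histone mRNA was lower with TAMo in most of its members. Of 16 genes of histone locus transcription and 3′ end processing 3 rose, 12 fell and 1 passed in neither direction. Their median change was -0.67. Over all genes tested 40.3% fell and 45.5% rose. Slbp, the stem-loop binding protein, was 96.4 and 96.2 FPKM with vehicle, 89.9 and 96.5 with TAN, and 22.7 and 24.8 with TAMo. Its fall of -1.97 ± 0.05 (SE, limma adjusted p = 2.34e-08) was level with that of Nelfe, a subunit of the elongation factor NELF, at -1.97. Npat, the organiser of the histone locus body, fell by 0.48, and Casp8ap2, which works there too, fell by 0.68. Lsm11, a protein of the U7 particle that cleaves histone pre-mRNA, fell by 0.92. The 3 that rose were Pou2f1, Cpsf2 and Ncbp2, led by Pou2f1, from 9.41 ± 0.0966 to 13.8 ± 0.607 FPKM (SD, n = 2). Among 5 genes of histone mRNA decay 3 fell and 2 rose, which is near those shares. Eri1, an exonuclease that acts on the stem-loop, fell by 0.80, and Zcchc11, a terminal uridylyltransferase, rose by 1.76. With TAN, Srrt, a partner of the cap-binding complex, was the only gene of these lists to pass, with a fall of -0.14. Over all genes tested 19.9% passed with TAN.

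Histone genes outside the clusters, most of whose transcripts are polyadenylated, passed in both directions. Of 10 tested, 6 fell and 4 rose with TAMo, where 40.3% of all genes tested fell and 45.5% rose. H2afz, which encodes the variant H2A.Z, was 768 and 773 FPKM with vehicle, 815 and 799 with TAN, and 70.8 and 69.0 with TAMo. Cenpa, the centromeric H3 variant, fell by 3.78 on the log2 scale. H2afx, the variant phosphorylated at DNA breaks, fell by 2.66. H3f3b, 1 of the genes for H3.3, rose from 294 and 291 to 446 and 474 FPKM. H1f0, a linker histone outside the clusters that is known for its level in non-dividing cells, fell from 37.3 and 34.8 to 21.3 and 21.7 FPKM, unlike Hist1h1c. With TAN, H3f3b fell by 0.22, and H2afv and H2afy rose, of 10 tested, where 19.9% of all genes tested passed. The H3f3b call was lost without vehicle replicate 1 and without TAN replicate 2.

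Chaperones that hand new histones to replicated DNA were lower with TAMo in 16 of 17 cases, with a median of -2.08. For this list and the next 2, the shares over all genes tested were 40.3% lower and 45.5% higher, with a median of 0.06. Chaf1b and Chaf1a, subunits of the assembly factor CAF-1, changed by -4.73 and -4.12. Asf1b and Nasp, which carry H3 and H4, changed by -3.55 and -3.65, and only Nap1l4 was called higher, by 0.07. Of 12 chaperones and exchange factors that work outside replication, 8 fell and 4 rose, from -3.20 for Oip5, a centromere factor, to 1.81 for Ubn2, a partner of Hira. All 19 genes of S phase entry and DNA synthesis fell, with a median of -3.52. Cdt1, the licensing factor, had the largest fall on the log2(FPKM + 1) scale (-5.07), whereas by the ratio of mean FPKM Cdc6 fell more, 50.8-fold against 49.2-fold. Their summed level was 1539 and 1562 FPKM with vehicle, 1538 and 1542 with TAN, and 110 and 115 with TAMo. The part of S phase content in the histone result was not tested.

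With TAN 4 of 17 replication-coupled chaperones, 4 of 12 other chaperones and 2 of 19 S phase genes passed, against 19.9% of all genes tested. Among the replication-coupled chaperones Asf1a, Mcm2 and Ipo4 fell and Nap1l1 rose, with the largest change in Asf1a, from 16.9 ± 1.29 to 11.9 ± 0.543 FPKM (SD, n = 2). Of the other chaperones Daxx and Cabin1 fell, and Anp32e and Atrx rose. Cdc6 and Cdt1 fell among the S phase genes, with changes of -0.24 and -0.21.

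**Figure D5:**
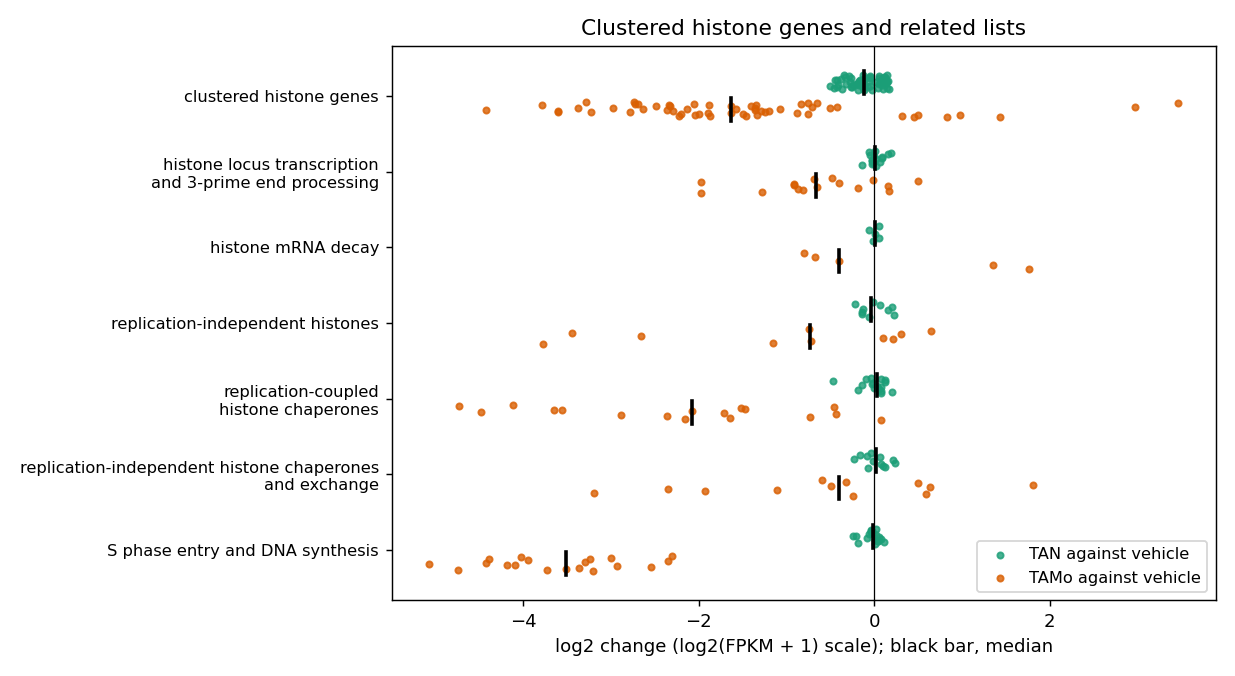
Change against vehicle on the log2(FPKM + 1) scale for each tested gene of the clustered histone set and of 6 related lists, TAN in green and TAMo in orange, with a black bar at each median. The green points stay near 0 in every list, and the orange points of the S phase list all lie below -2, while those of the clustered histones reach from -4.43 to 3.46.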

How the data were processed

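RNA was sequenced from 6 libraries of mouse CD8+ T cells, 2 per group, after Trizol extraction and an Illumina TruSeq preparation, per the labels' protocols. The authors deposited 1 table of FPKM by gene. The submitters' processing notes list mm10, featureCounts 1.5.0-p3, HISAT2 2.0.5 and CASAVA, with no roles stated. The sources used here do not give the annotation, the strand setting or whether poly(A) RNA was selected.

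All 10936 genes that reached 1 FPKM in any library were tested with 1 limma model (limma 3.58.1, R 4.3.3) on log2(FPKM + 1) over all libraries, with a variance trend (degrees of freedom 3 residual, 4.04 prior). Two-sided tests were called at a Benjamini-Hochberg adjusted p of 0.05, and the model was tested on simulated data. This log2 scale understates how much low genes change. A ratio is one of mean FPKM. After ±, SD belongs to FPKM and SE to log2 changes.

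Members and lists were chosen with earlier results of these data known. Named members are the 2 highest of each class, the 3 largest rises and falls of each comparison and those called against most of their class. Others named (Hist1h1a, Hist1h1d, Hist1h1e, Hist1h2bk, Hist1h3g, Hist1h4h, Hist1h4n and neighbours) were chosen after their values were seen. Of the lists, preset genes and the largest changes are named. Markers of B cells, erythroid and epithelial cells summed to at most 9.36, 0.28 and 0.907 FPKM in any library. Depth was taken from whole-read steps, which all 124 low member values met within 0.1 read.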

Additional observations from a re-analysis of the deposited data

How the results depend on the processing

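All settings were 1 change each from the fit described, 17 in all with the libraries left out in turn. For TAN against vehicle the count of lower members was 0, and it was 3 when only the 2 groups compared were fitted and 0 to 3 when 1 library was left out (3 without either TAMo library, then Hist1h2bc, Hist1h4m and Hist2h2aa1, and 1 without vehicle replicate 2 or either TAN library). No setting called a member higher. With a mean of at least 5 FPKM, 23 members remained to be tested, and fewer could be called: 2 rose and 21 fell with TAMo against vehicle, and 21 were higher and 2 lower with TAN against TAMo. The other settings kept the counts of these comparisons within 1.5 times. No named result changed direction, and of 1506 values for 90 named results 1471 stayed on their side of the threshold, 15 passed it newly and 20 no longer passed. Of the TAMo calls against vehicle, 46 of 49 falls held in every setting that tested them, the exceptions being Hist1h2bf, Hist1h2bh and Hist1h4n, and 4 of 6 rises. For TAN against TAMo 43 of 47 and 4 of 7 held. The median of all genes tested, TAMo against vehicle, was 0.06 as deposited, 0.15 after rescaling without mitochondrial transcripts and 0.00 after median-of-ratios rescaling.

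Libraries with the same number were not shown to be paired: their deviations correlated at 0.06, 0.03 and 0.01 over all genes tested and at 0.16, 0.22 and 0.06 over the 57 compared members. With the replicate number as a block, 1 member (Hist1h3g) was lower with TAN than with vehicle, 7 rose and 49 fell with TAMo, and 47 were higher and 7 lower with TAN than with TAMo. Depth limits the members that fell to a few reads with TAMo, for which the size of the change is not known.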
